A study of Mus musculus with 67 samples.

Results

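The response of all genes to loss of *Gli3* was described in the anterior forelimb bud of the mouse embryo at E10.5. The comparison set 3 *Gli3*-/- libraries against 4 WT libraries, which are 7 of the 14 RNA-seq libraries and of the 67 samples of the series, and these libraries were chosen by their labels alone. Of 46983 gene IDs listed for each library, 15654 were tested, namely those in which 3 or more of the 7 libraries reached a TPM of 1, TPM being a share of the library's transcripts scaled by gene length. The WT embryos were Swiss Webster and the other embryos were labelled *Gli3*-/-. The methods name the *Gli3* Xt-J allele, which was kept on the Swiss Webster background and lacks the 3′ part of the gene in every cell of the embryo, so that an effect seen in the limb need not start in the limb. Both genotypes were at 32 to 35 somites. The labels give 2 pairs of anterior forelimb buds per library where the methods give about 4 pairs, and the methods say that buds were pooled over litters but not whether libraries of a group share litters, so that p-values measure the spread between these pools.

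GLI3 is a zinc finger transcription factor that ends the Hedgehog (HH) pathway. Without HH ligand it is cut to a repressor that keeps HH target genes off, and with ligand the repressor is lost. Sonic hedgehog (*Shh*) is made in the posterior margin of the limb bud, so the anterior bud is the domain in which the GLI3 repressor is abundant. Embryos that lack *Gli3* form extra digits, and posterior genes such as *Hand2* and the 5′ Hoxd genes spread forward in their limb buds.

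The E10.5 libraries held an estimated 38.6 to 54.2 M reads, so that 1 TPM stood for 20.7 to 28.1 reads on each kilobase of transcript. *Gli3* itself had TPM values of 84.3, 73.4, 89.7 and 79.1 in the WT libraries and of 40.9, 40.3 and 38.7 in the *Gli3*-/- libraries. The groups did not overlap, and on the scale of log2(TPM + 1), used for every fold change here, *Gli3* fell by 1.01 (SE 0.08, limma adjusted p = 0.000335). This call was lost (limma adjusted p = 0.0648) when the E9.25 libraries of the series shared the estimate of the spread. The gene-level value still counts the exons that Xt-J leaves in place, so that it checks the labels only in part. The forelimb factor *Tbx5* lay between 47.1 and 76.1 TPM in the 7 libraries and the hindlimb factor *Pitx1* at or below 0.39, and of 6 hindlimb genes 2 were tested and 0 passed with limma (0 at an unadjusted p under 0.05).

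Cells other than limb mesenchyme were followed by marker lists. With limma, 0 of 15 endothelial, 0 of 12 red cell and 0 of 11 macrophage markers tested passed, and 0, 0 and 1 of them had an unadjusted p under 0.05. Of 10 muscle progenitor markers *Met* fell by 0.57 and *Eya1* by 0.56 (20%, against 2.93% of all tested genes). Neither passed in every fit that left out 1 library, and 9 of the 10 markers were lower. The beta globin *Hbb-bs*, which is not in the red cell list, rose by 2.06 (limma adjusted p = 0.0368), from 63.2, 46.0, 91.8 and 70.1 TPM to 107, 487 and 406 TPM, a call that 2 of the 7 fits without a library gave. All 12 tested red cell markers were higher in *Gli3*-/- limbs (median log2 fold change 0.55). Their summed TPM was 12500 to 17400 in WT limbs and 14900, 16700 and 42300 in *Gli3*-/- replicates 1, 2 and 3. Of 19 ectoderm markers *Fgf8* rose and *Rspo4* and *Dlx3* fell. In all, 14 of the 19 were lower and 5 higher in *Gli3*-/- limbs (median log2 fold change -0.3). At an unadjusted p under 0.05 (limma), 9 were lower and 2 higher. The summed TPM was 393 to 502 in WT and 452 to 512 in *Gli3*-/- limbs. This sum includes *Fgf8*, which rose by 1.36, so that it does not show how the other ectoderm markers moved. Of the flank, somite and neural lists 3, 5 and 6 genes were tested. *Meox2* was higher (20% of the somite genes, against 1.84% of all) and *Dcx* lower (16.7% of the neural genes, against 2.93%). Neither call held in every fit without a library. *Foxd3* and *Nkx2-5* were listed at 0 in every library and *Foxf1* reached at most 0.20. The summed TPM ranged from 97.5 to 114 in WT and from 69.7 to 108 in *Gli3*-/- limbs for muscle, from 174 to 205 and from 170 to 211 for endothelium, and from 24.8 to 36.9 and from 26.6 to 29.5 for macrophages. It ranged from 52.4 to 71.6 and from 62.3 to 81.7 for flank, from 64.6 to 76.9 and from 75.8 to 103 for somite, and from 38.8 to 47.4 and from 34 to 37.2 for neural genes. The part of these cells in the results was not tested, and in tissue libraries fewer cells of a type and less RNA per cell cannot be told apart.

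Loss of *Gli3* changed 747 genes (4.77% of those tested) at an adjusted p below 0.05. Of these, 288 (1.84%) were upregulated and 459 (2.93%) downregulated. The split depends on the scaling, at 344 up and 428 down with quantile normalization and 357 up and 457 down with median-of-ratios factors. It also depends on the filter, at 178 up and 213 down without one. A gene expressed only in WT limbs could enter with 3 of 4 libraries, and one expressed only in *Gli3*-/- limbs needed all 3. The fall was also the larger movement in size, since 148 genes fell and 60 rose by at least 1 on the log2 scale, and 30 fell and 10 rose by at least 2. The median change was -0.80 among the downregulated and 0.69 among the upregulated genes, against -0.02 among all tested genes. A WT mean of at least 10 TPM was found for 52.9% of the downregulated, 59.4% of the upregulated and 60.4% of all tested genes. With a pseudocount of 0.1 in place of 1, the log2 fold change grew by over 1.5 times in 16 of 175 genes that passed and were followed across settings, so that sizes and ranks of genes near 0 TPM depend on it. Among them it was -6.72 for *Pax1*, -5.27 for *Gm9722*, -3.65 for *Gdf6*, -3.55 for *Rprm*, -3.35 for *Crhbp*, -3.02 for *Rspo1*, -2.71 for *Runx2* and 4.57 for *Gpx6*, and *Shh* then ranked above *Hoxd12* (5.04). The count fell to 301 without *Gli3*-/- replicate 3, to 489 and 453 without replicates 1 and 2, and to 450 without WT replicate 1 or WT replicate 4, each with fewer libraries. In every such fit that could test the gene, 164 of the downregulated and 126 of the upregulated genes passed.

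**Figure D1:**
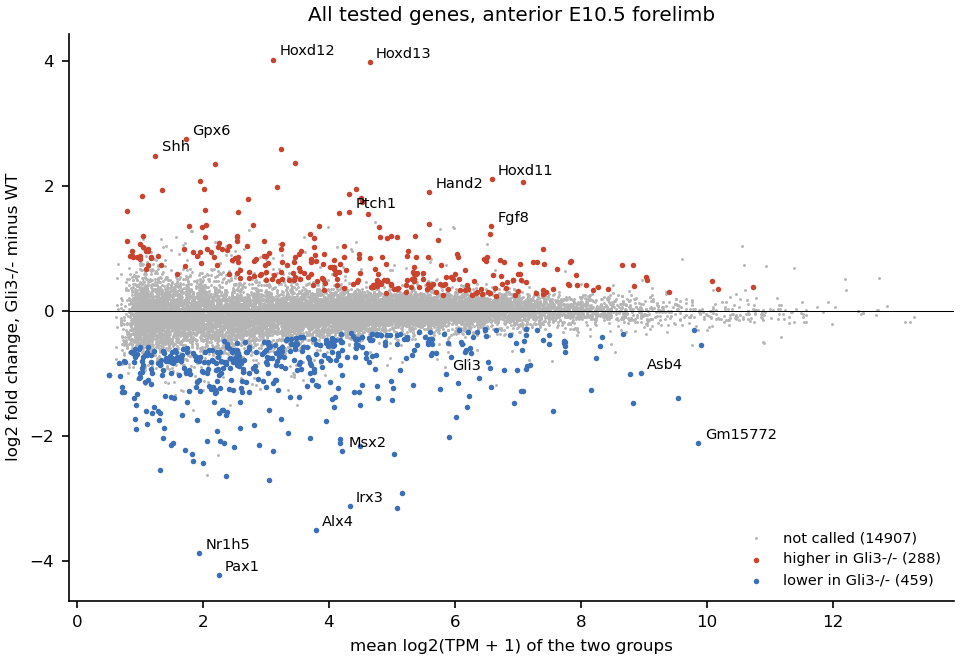
Each point is 1 of the 15654 tested genes, with the mean log2(TPM + 1) of the 2 groups on the x axis and the log2 fold change of *Gli3*-/- over WT anterior E10.5 forelimb buds on the y axis. Blue points are the 459 downregulated and red points the 288 upregulated genes, and the blue points reach -4.23 (*Pax1*) while the red points reach 4.03 (*Hoxd12*).

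Of the 7 largest falls 4 were of transcription factors of the anterior and proximal bud, and the others were of *Nr1h5* and the mitochondrial tRNA genes *mt-Tw* and *mt-Ta*. *Pax1*, a paired box factor of the shoulder girdle and the sclerotome, had TPM values of 16.2, 8.27, 30.7 and 34.6 in WT and of 0.14, 0.17 and 0 in *Gli3*-/- limbs. It fell by 4.23 (SE 0.40, limma adjusted p = 0.000645), with no *Gli3*-/- library above 1 TPM. *Alx4*, an aristaless-like homeobox gene that restrains *Shh* in the anterior bud, fell by 3.51 (SE 0.37, limma adjusted p = 0.00103), from 52.9, 31.9, 51.0 and 51.0 TPM to 6.22, 3.73 and 1.05 TPM. *Irx3* and *Irx5*, Iroquois factors needed for anterior elements of the limb skeleton, lie in the same cluster on chromosome 8. *Irx3* was at 65.7, 48.2, 67.4 and 53.5 TPM in WT and at 11.5, 6.77 and 2.24 TPM in *Gli3*-/- limbs, a fall by 3.12, and *Irx5* fell by 2.71 from a range of 17.8 to 22.9 TPM to a range of 0.80 to 3.98 TPM. In these 4 genes every WT library was above every *Gli3*-/- library, and *Gli3*-/- replicate 3 was the lowest. Groups without overlap were found in all 747 changed genes and in 19.3% of all tested genes.

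*Nr1h5*, which encodes the farnesoid X receptor beta, was at 8.21, 10.1, 12.7 and 32.8 TPM in WT limbs and was listed at 0 in all 3 *Gli3*-/- libraries, so that no fold is given (limma adjusted p = 0.000687). *Agtr2*, the type 2 angiotensin receptor on the X chromosome, fell by 2.41, with 4.70 to 12.9 TPM in WT and 0.41 to 0.87 TPM in *Gli3*-/- limbs. *Gria2*, a subunit of AMPA glutamate receptors, fell by 2.29, from a range of 5.41 to 10.3 TPM to a range of 0.34 to 0.76 TPM. *Crhbp*, a secreted protein that binds corticotropin-releasing hormone, fell by 2.23 with little spread, from 5.70 to 6.64 TPM to 0.37 to 0.59 TPM. *Rprm*, a p53 target that arrests the cell cycle, was at 3.75, 4.13, 5.15 and 7.26 TPM and fell to 0.46, 0.43 and 0.16 TPM. WT replicate 4 was the highest WT library for *Pax1*, *Nr1h5*, *Agtr2*, *Gria2* and *Rprm*.

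Unnamed transcripts stood among the largest falls too. The noncoding *AA465934* had the smallest adjusted p among the genes named here (3.18e-05, limma), at 67.2, 83.7, 62.0 and 75.4 TPM in WT and at 13.9, 13.8 and 13.9 TPM in *Gli3*-/- limbs, a fall by 2.29. It lies on chromosome 11 from 83291699 to 83294632 and overlaps the small nucleolar RNA gene *Snord7* on the same strand, so that its reads are uncertain. *Gm9967* on chromosome 7 fell by 2.43, from 6.99 to 9.91 TPM to 0.30 to 1.06 TPM, and overlaps *Gdpd3* on the other strand. *Gm9722*, listed as a pseudogene on chromosome 1, fell by 2.55, from 3.93 to 7.61 TPM to at most 0.07 TPM. The call for the pseudogene *Gm5445*, on chromosome 13, was lost without any of WT replicates 1, 3 and 4 and *Gli3*-/- replicates 2 and 3 (limma adjusted p up to 0.121 from 0.0315).

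**Figure D2:**
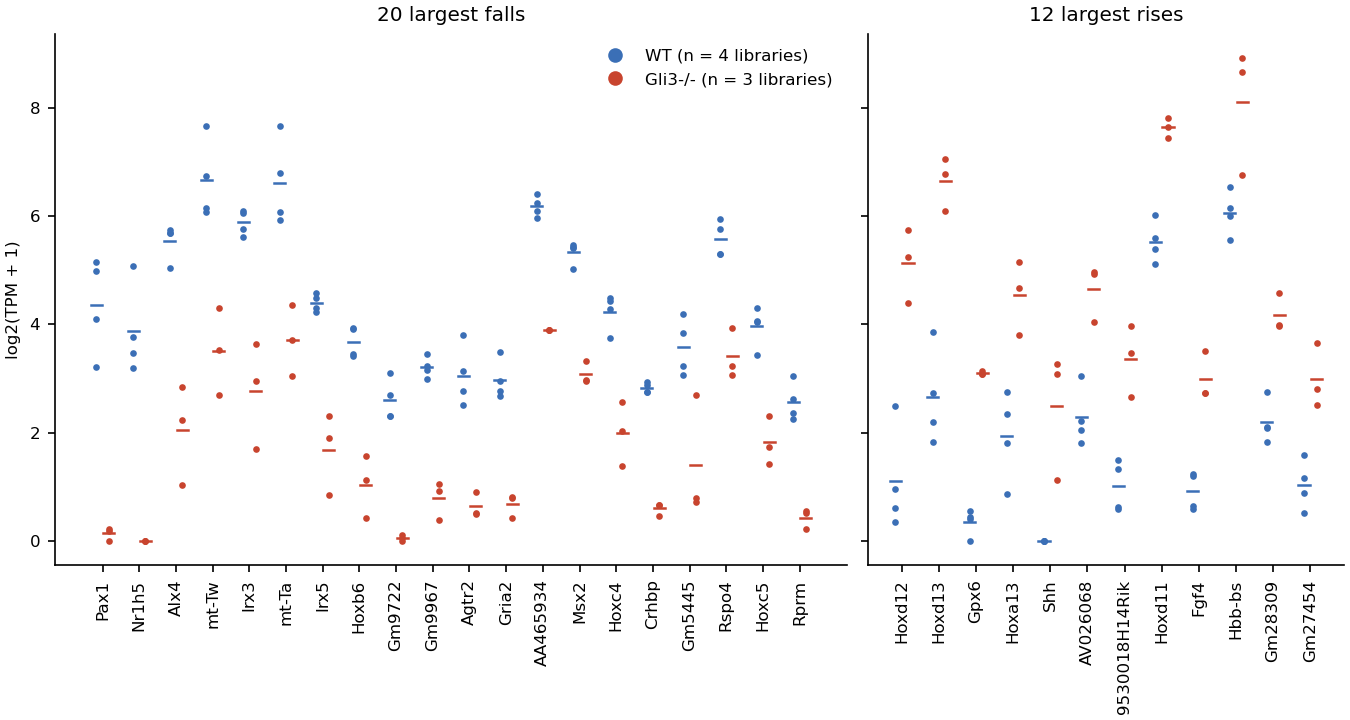
Values of log2(TPM + 1) in each library for the 20 largest falls and the 12 largest rises among genes past the threshold with no overlap between the groups. Blue points are the 4 WT and red points the 3 *Gli3*-/- libraries, and short bars are group means. The 3 *Gli3*-/- points of *Pax1* and *Nr1h5* sit near 0, and the 4 WT points of *Shh* lie at 0.

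Promoters of the named genes were read from RefSeq (GRCm38.p6), from 250 bases before to 50 after the annotated start. Of 42 named genes 24 matched by symbol, chromosome and strand. The RefSeq start nearest to the start of the gene as listed for these libraries was used, at any distance. The listed genes *Pax1* and *Hoxc4* start at 147361925 and 103018934, and their windows lie inside them, so that these windows do not cover the listed starts. No promoter of these held GACCACCCA, the GLI consensus, on either strand, against 0.244% of the 27025 genes in the table. Its core CCACCCA, which is contained in the longer motif, was in 3 of them, and was in 11.4% of 289 matched downregulated genes, in 8.72% of 172 upregulated genes and in 9.32% of all genes in the table. A match of these letters is not a site of binding. The 3 promoters with the core are shown because they belong to a leading anterior gene, a Hox gene that fell and a Hox gene that rose. They are *Pax1* at chr2:147364744-147365043 (plus strand), *Hoxc4* at chr15:103034145-103034444 (plus strand) and *Hoxa13* at chr6:52260831-52261130 (minus strand), each printed along its gene's strand with the core, or its reverse complement, in capitals.
Pax1: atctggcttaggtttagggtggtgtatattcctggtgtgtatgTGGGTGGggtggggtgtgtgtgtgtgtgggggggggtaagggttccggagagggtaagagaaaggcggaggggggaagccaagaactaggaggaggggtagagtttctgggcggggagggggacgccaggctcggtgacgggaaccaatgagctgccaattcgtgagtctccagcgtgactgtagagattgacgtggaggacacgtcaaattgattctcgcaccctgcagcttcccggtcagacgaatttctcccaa
Hoxc4: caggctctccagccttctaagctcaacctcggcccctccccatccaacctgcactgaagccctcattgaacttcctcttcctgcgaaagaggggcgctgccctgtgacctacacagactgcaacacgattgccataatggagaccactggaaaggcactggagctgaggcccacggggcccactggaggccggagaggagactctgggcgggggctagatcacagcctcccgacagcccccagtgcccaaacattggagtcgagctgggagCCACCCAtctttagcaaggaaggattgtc
Hoxa13: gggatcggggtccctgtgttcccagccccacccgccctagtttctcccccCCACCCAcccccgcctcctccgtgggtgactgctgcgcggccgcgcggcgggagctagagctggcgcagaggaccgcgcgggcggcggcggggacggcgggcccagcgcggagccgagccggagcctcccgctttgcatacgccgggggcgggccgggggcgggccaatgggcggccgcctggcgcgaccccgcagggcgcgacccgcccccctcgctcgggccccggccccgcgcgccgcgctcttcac

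The anterior and proximal list had 30 genes, of which 24 were tested. Of these 15 fell (62.5%, against 2.93% of all tested genes), 2 rose and 7 did not pass, and the median log2 fold change was -0.93. The list was drawn up with earlier results of these data known, so that its direction is not independent evidence. Among the aristaless-like genes, *Alx1* fell from 5.71 to 7.58 TPM in WT to 1.24 to 2.26 TPM (log2 fold change -1.45), a smaller fall than the 3.51 of its paralog *Alx4*. *Gsc*, which encodes goosecoid, a homeobox repressor of the proximal anterior bud, was at 25.0, 20.7, 34.7 and 31.1 TPM and fell to 8.69, 8.42 and 5.49 TPM (log2 fold change -1.76, SE 0.19, limma adjusted p = 0.00136). Of the 15 falls 14 passed in every fit without a library.

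*Meis1*, which encodes a TALE homeodomain factor of the future upper arm, was at 44.2, 39.9, 43.7 and 46.9 TPM in WT and at 19.0, 16.7 and 12.6 TPM in *Gli3*-/- limbs, a fall by 1.40 (SE 0.13, limma adjusted p = 0.000586). *Meis2* fell by 1.25 and *Meis3* by 1.28. *Emx2*, a homeobox gene needed for the scapula, fell by 0.93, from 13.2 to 17.9 TPM to 6.06 to 9.27 TPM, and the LIM factor *Lhx9* fell by the same amount, from 162 to 215 TPM to 98.7 to 103 TPM. The ephrin receptor *Epha3* fell by 1.23 and the ubiquitin ligase subunit gene *Asb4* by 0.99.

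Not every proximal gene fell. *Osr2*, an odd-skipped factor, rose from 10.1, 13.7, 17.3 and 13.4 TPM to 39.9, 57.4 and 30.8 TPM, a rise of 1.56 (SE 0.21, limma adjusted p = 0.00399), and *Shox2*, a short stature homeobox gene needed for the humerus, rose by 0.79, from 99.2 to 129 TPM to 176 to 231 TPM. *Osr1* had TPM values of 7.28, 6.12, 6.89 and 4.03 in WT and of 15.4, 18.3 and 5.88 in *Gli3*-/- limbs, so that replicate 3 lay within the WT range, and it did not pass (limma adjusted p = 0.172). *Irx2*, *Tbx18*, *Tbx15*, *Pknox2* and *Zic2* did not pass either, at log2 fold changes from -0.61 to 0.45. *Pax9*, *Irx1*, *Irx6*, *Hand1* and *Nkx3-2* were below the filter, and *Pax9* reached at most 0.48 TPM in any library.

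Of 25 tested posterior and distal genes, 18 rose (72%, against 1.84% of all tested genes) and 2 fell, with a median of 0.85. *Hand2*, a basic helix-loop-helix factor of the posterior bud, was at 22.1, 31.4, 22.8 and 21.0 TPM in WT and at 72.6, 112 and 95.6 TPM in *Gli3*-/- limbs. Of the spalt-like zinc finger genes, *Sall3* rose by 1.57, *Sall1* by 1.35 and *Sall4* by 0.85, with *Sall3* going from 8.03 to 11.0 TPM to 26.2 to 32.3 TPM. *Shh*, the HH ligand itself, had TPM values of 1.17, 7.47 and 8.67 in the *Gli3*-/- libraries and was listed at 0 in each WT library (limma adjusted p = 0.0134). Its call was lost without a filter on low TPM (limma adjusted p = 0.0735). The T-box factor *Tbx2* fell by 1.59, from 13.1, 8.18, 15.8 and 18.6 TPM to 2.65, 5.24 and 3.77 TPM, and *Dlx5* by 0.69. The rise of the Notch ligand *Jag1* (0.79) passed in only 1 of the 7 fits without a library.

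**Figure D3:**
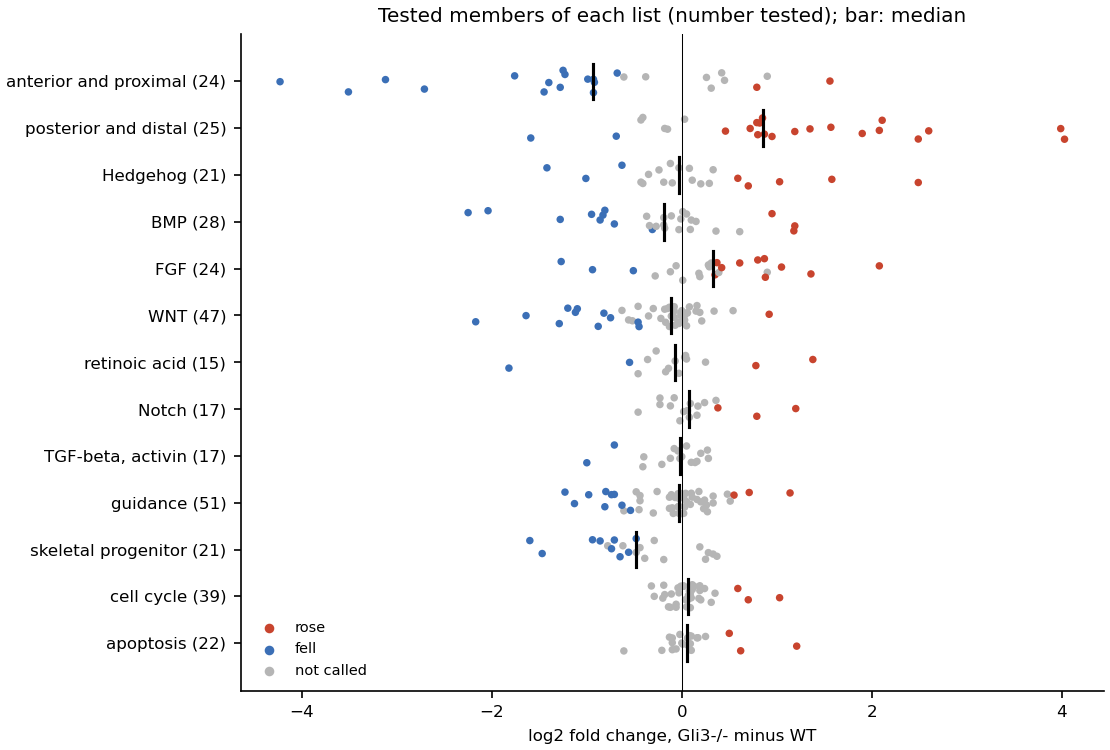
Log2 fold changes (x axis) of the tested members of 13 lists of genes, with the number tested beside each name and a bar at the median. Red members rose, blue members fell and grey members did not pass. The anterior and proximal list lies mostly to the left of 0, with its median at -0.93, and the posterior and distal list mostly to the right, with its median at 0.85.

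Hox genes, which are set in 4 clusters and numbered from 3′ to 5′, divided by their place in the cluster. They were taken up as a family after their values were seen. Of 36 Hox genes of paralog groups 2 to 13, 31 were tested. Of these 13 fell (41.9%, against 2.93% of all tested genes), 7 rose (22.6%, against 1.84%) and 11 did not pass. In groups 2 to 8, 13 of 20 tested genes fell (65%) and 0 rose, and in groups 9 to 13, 7 of 11 rose (63.6%) and 0 fell. At an unadjusted p under 0.05 (limma), 1 gene of groups 2 to 8 was higher and 1 of groups 9 to 13 lower. All 7 tested Hoxb genes fell, from *Hoxb4* by 1.14 to *Hoxb6* by 2.64. *Hoxb6* was at 14.1, 9.63, 14.3 and 9.90 TPM in WT and at 1.97, 1.18 and 0.34 TPM in *Gli3*-/- limbs. In the Hoxc cluster, *Hoxc4*, *Hoxc5* and *Hoxc6* fell by 2.24, 2.14 and 2.05, while *Hoxc8* and *Hoxc9* stood at -0.14 and -0.04 and did not pass. *Hoxa2*, *Hoxa3* and *Hoxa4* fell, *Hoxa2* most (by 1.23), *Hoxa5* to *Hoxa9* did not pass, and *Hoxa10*, *Hoxa11* and *Hoxa13* rose by 0.46, 0.80 and 2.60. The Hoxd cluster held the largest rises, from *Hoxd10* at 0.82 through *Hoxd11* at 2.11 to *Hoxd12* at 4.03 and *Hoxd13* at 3.99, while *Hoxd3*, *Hoxd4*, *Hoxd8* and *Hoxd9* did not pass.

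The 5′ genes differed in how far they were from silence in WT limbs. *Hoxd12* was at 0.52, 4.62, 0.95 and 0.27 TPM in WT and at 20.03, 52.5 and 37.2 TPM in *Gli3*-/- limbs (limma adjusted p = 0.00215). *Hoxd13* went from 3.57, 13.5, 5.65 and 2.53 TPM to 67.7, 132 and 109 TPM. *Hoxd11* was already at 33.8, 64.2, 47.5 and 41.0 TPM in WT and reached 173, 226 and 201 TPM. WT replicate 2 was the highest WT library for these 3 genes and *Gli3*-/- replicate 1 the lowest of its group. *Hoxa13* was at 0.83, 2.49, 5.73 and 4.09 TPM in WT and at 12.98, 34.6 and 24.6 TPM in *Gli3*-/- limbs, and lost its call without the filter on low TPM (limma adjusted p = 0.0669). Transcripts beside these genes rose with them, *Gm28309*, which overlaps *Hoxd10* and *Hoxd11*, by 1.98, *9530018H14Rik*, which lies at the 3′ end of *Hoxa13*, by 2.36 and *Gm27454*, which overlaps *Hoxa11os*, by 1.96. *Hoxc5* overlaps *Hoxc6*, *Hoxc8*, *Hoxc9* and *Hoxc10* on the same strand in these tables, so that reads of the cluster may be shared among them. The falls of *Hoxa4* and *Hoxb5* were lost without some of the libraries (limma adjusted p up to 0.0846), and the other 11 falls and all 7 rises passed in every fit without a library.

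**Figure D4:**
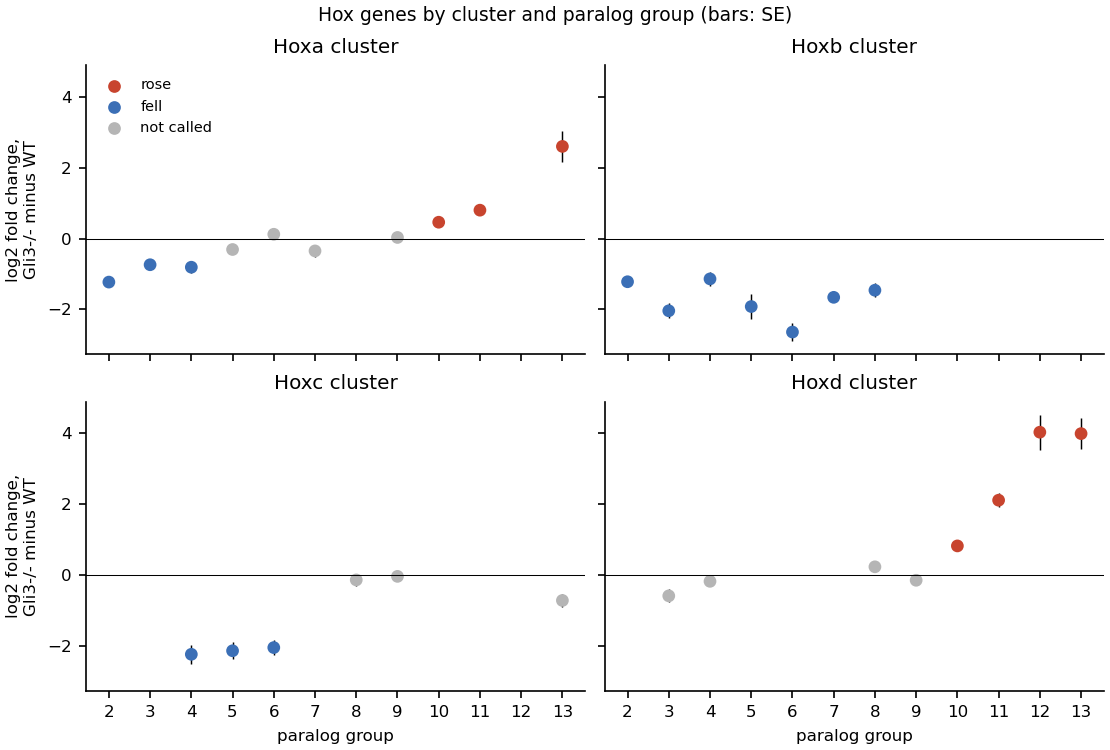
Log2 fold change of *Gli3*-/- over WT (y axis, bars are SE) for the 31 tested Hox genes of groups 2 to 13 by paralog group (x axis), in a panel for each cluster. Blue points fell, red points rose and grey points did not pass. The blue points lie at groups 2 to 8 and the red points at groups 10 to 13, up to 4.03 for *Hoxd12*.

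Of 21 tested genes of the HH pathway 5 rose (23.8%, against 1.84% of all), 3 fell (14.3%, against 2.93%) and 13 did not pass, with a median of -0.03. The 8 calls held in every fit without a library that could test them. *Shh*, 1 of these rises, was listed at 0 in each WT library and could be tested only without a WT library. Such a fit leaves out a value of 0, so that it is a weak check of this call. The receptor and target *Ptch1* was at 9.54, 11.7, 11.3 and 9.70 TPM in WT and at 28.7, 38.3 and 33.96 TPM in *Gli3*-/- limbs. *Cdon* and *Gas1*, co-receptors that bind HH ligand and are kept low where signaling is high, both fell. *Cdon* fell from 50.3, 42.3, 54.9 and 59.8 TPM to 19.2, 18.7 and 17.8 TPM (log2 fold change -1.42, SE 0.11, limma adjusted p = 0.000335) and *Gas1* from 147 to 175 TPM to 94.5 to 116 TPM, while the third co-receptor *Boc* stood at -0.43 and did not pass (limma adjusted p = 0.203). *Gli1*, the target that needs GLI activator, was at 4.8, 9.87, 5.15 and 3.41 TPM in WT and at 4.56, 9.82 and 7.73 TPM in *Gli3*-/- limbs, so that the groups overlapped (log2 fold change 0.33, SE 0.31, limma adjusted p = 0.618). *Hhip* likewise stood at 0.29 (SE 0.22), and *Gli2*, *Smo*, *Sufu* and *Kif7* lay between -0.12 and 0.11. The cell cycle genes *Ccnd1* and *Cdk6* rose by 0.59 and 0.70.

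BMP signaling drives cartilage formation and cell death in the bud. Of 28 tested genes 9 fell (32.1%, against 2.93% of all), 3 rose (10.7%, against 1.84%) and 16 did not pass, and 8, the antagonist *Nog* among them, were below the filter. *Msx2*, a homeobox target of BMP, was at 42.0, 31.8, 43.3 and 41.5 TPM in WT and at 8.98, 6.88 and 6.73 TPM in *Gli3*-/- limbs, a fall by 2.25 (SE 0.13, limma adjusted p = 7.36e-05). *Msx1* fell by 0.86 from 168 to 227 TPM to 102 to 119 TPM. Of the Id genes, inhibitors of helix-loop-helix factors and direct targets of SMADs, *Id2* fell by 1.28, *Id1* by 0.95 and *Id3* by 0.81, and *Id4* did not pass at -0.37. *Id2* went from 194, 203, 201 and 246 TPM to 95.0, 85.3 and 78.0 TPM.

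The ligands differed among themselves. *Bmp4* was at 41.6, 34.7, 43.7 and 46.8 TPM in WT and at 39.7, 47.0 and 52.3 TPM in *Gli3*-/- limbs (log2 fold change 0.15, SE 0.12), and *Bmp7* stood at 0.10 (SE 0.09). *Bmp2* rose by 0.95 from 1.38 to 1.96 TPM to 3.14 to 4.87 TPM. Of the joint-forming ligands, *Gdf6* fell by 2.04, from 4.89, 3.76, 3.98 and 4.42 TPM to 0.42, 0.37 and 0.07 TPM, and *Gdf5* by 0.71, a call that no fit without a library gave. The receptor *Bmpr1b* fell by 0.83. The antagonists *Grem1* and *Smoc1* rose by 1.19 and 1.18, with *Smoc1* at 20.7, 22.5, 25.0 and 18.9 TPM in WT and at 54.9, 52.7 and 44.0 TPM in *Gli3*-/- limbs. Of the 9 falls, 5 passed in every fit without a library, those of *Msx2*, *Gdf6*, *Id2*, *Id1* and *Msx1*.

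The apical ridge is the thickened ectoderm at the tip of the bud, and its FGFs keep the distal mesenchyme growing. Of 24 tested FGF genes 10 rose (41.7%, against 1.84% of all), 3 fell and 11 did not pass. *Fgf8* was at 59.0, 50.4, 69.0 and 57.8 TPM in WT and at 131, 157 and 171 TPM in *Gli3*-/- limbs, a rise of 1.36 (SE 0.12, limma adjusted p = 0.000501). *Fgf4* rose by 2.08 from 0.50 to 1.34 TPM to 5.63 to 10.4 TPM. *Fgf10*, the mesenchymal ligand that maintains the ridge, rose by 1.05, from 10.2 to 13.1 TPM to 25.5 to 27.3 TPM. The phosphatase *Dusp6*, a readout of FGF signaling, was at 185, 172, 174 and 161 TPM in WT and at 301, 298 and 307 TPM in *Gli3*-/- limbs, a rise of 0.80, and *Spry4* and *Spry2* rose by 0.87 and 0.61. Other readouts did not pass, *Etv4* at 0.29 and *Etv5* at 0.39. The receptors *Fgfr2* and *Fgfr3* fell by 0.94 and 1.27 while *Fgfr1* stood at 0.28 and did not pass. Of the 10 rises, 6 passed in every fit without a library, and those of *Fgf17*, *Spry1*, *Il17rd* and *Spred2* did not.

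WNT genes mostly did not pass. Of 47 tested 11 fell (23.4%, against 2.93% of all) and 1, *Wnt5a*, rose. Of the R-spondins, which strengthen WNT signals, *Rspo4* fell by 2.17, *Rspo1* by 1.64 and *Rspo2* by 0.46, while *Rspo3* stood at 0.54 and did not pass. *Rspo4* was at 60.8, 38.7, 53.1 and 38.4 TPM in WT and at 14.3, 7.38 and 8.39 TPM in *Gli3*-/- limbs. The ligand *Wnt4* fell by 1.12 from 6.77 to 9.52 TPM to 2.78 to 3.52 TPM, and the receptor *Ror1* by 1.10. Of the WNT inhibitors, *Sfrp1* fell by 1.29, *Wif1* by 1.2, *Dkk1* by 0.88 and *Dkk2* by 0.82. The target *Axin2* fell by 0.45, from 38.1 to 45.6 TPM to 30.3 to 32.5 TPM, and *Lef1* stood at -0.22 and did not pass. *Wnt5a*, the noncanonical ligand of distal mesenchyme, rose by 0.92 from 39.2 to 50.9 TPM to 70.7 to 99.7 TPM. Of the 11 falls 6 passed in every fit without a library, and those of *Axin2*, *Dkk1*, *Fzd6*, *Rspo2* and *Wif1* did not.

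**Figure D5:**
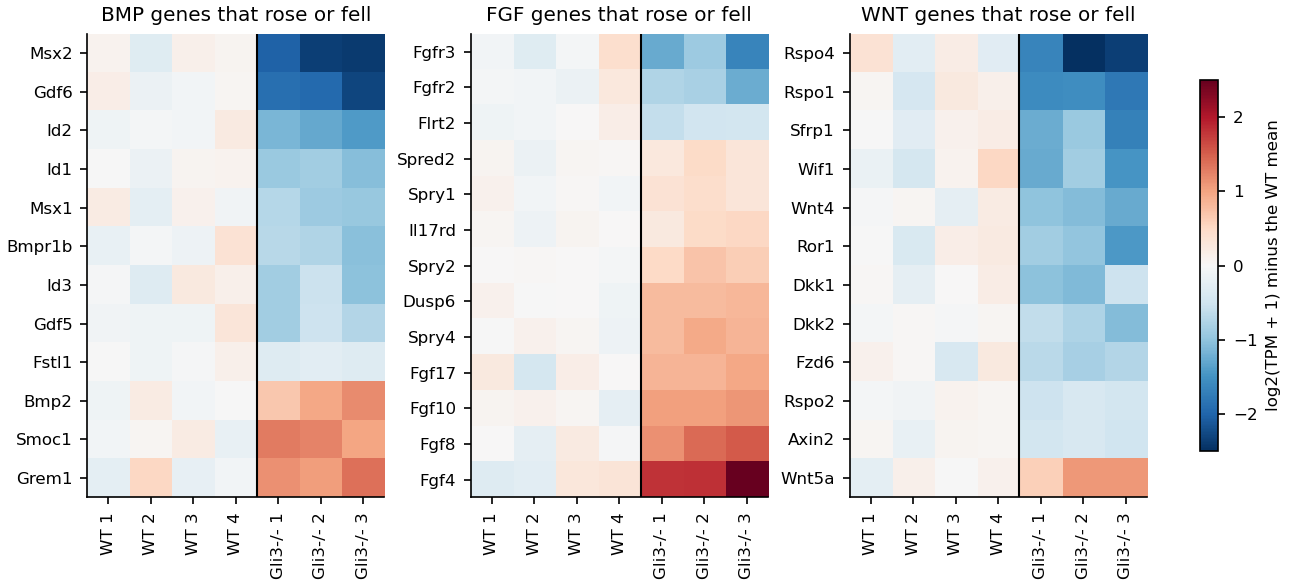
Each row is a gene of the BMP, FGF or WNT list that rose or fell and each column a library, and the colour is log2(TPM + 1) minus the WT mean of the gene. *Msx2*, *Gdf6* and *Rspo4* are dark blue in the 3 *Gli3*-/- columns and *Fgf4* is dark red, while the 4 WT columns stay near 0.

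Of 15 tested genes of retinoic acid signaling 2 fell (13.3%, against 2.93% of all), 2 rose (13.3%, against 1.84%) and 11 did not pass. *Rarb*, a receptor gene that is itself a target, fell by 1.82 (SE 0.24, limma adjusted p = 0.00366), from 14.9, 10.2, 12.5 and 11.4 TPM to 4.82, 2.36 and 1.64 TPM. *Crabp2*, a binding protein that carries retinoic acid to the nucleus, was among the most abundant genes and fell by 0.55, from 1142 to 1181 TPM to 709 to 847 TPM. *Cyp1b1* rose by 1.38, and *Cyp26b1*, which degrades retinoic acid in the distal bud, rose by 0.78, from 70.6 to 97.6 TPM to 108 to 184 TPM, a call that 5 of the 7 fits without a library did not give. In the Notch list 3 of 17 rose (17.6%, against 1.84% of all), the target *Hey1* by 1.2, *Jag1* by 0.79 and *Hes1* by 0.38, and *Hey1* alone passed in every fit without a library. In the TGF-beta and activin list 2 of 17 fell (11.8%, against 2.93% of all), *Tgfb2* by 1.00 and *Tgfbi* by 0.71, and neither passed in every such fit.

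Of 51 guidance and sorting genes 9 fell (17.6%, against 2.93% of all), 3 rose (5.88%, against 1.84%) and 39 did not pass, and the number of falls ranged from 2 to 12 under the other settings and from 3 to 8 without a library. Among ephrin receptors, *Epha3* and *Epha7* fell by 1.23 and 1.13 and *Epha4* rose by 0.55. *Epha7* was at 21.9, 23.3, 20.8 and 26.8 TPM in WT and at 11.4, 11.3 and 7.68 TPM in *Gli3*-/- limbs. The semaphorin co-receptor *Nrp2* rose by 1.14, from 30.4, 35.6, 36.7 and 37.4 TPM to 66.3, 91.0 and 79.4 TPM. *Slit3* rose by 0.71 and *Slit2* fell by 0.54. Those that passed in every fit without a library were *Epha3*, *Epha7* and *Efna3* among the falls and *Nrp2* and *Slit3* among the rises.

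Skeletal progenitor genes fell or did not pass. Of 21 tested 9 fell (42.9%, against 2.93% of all) and 0 rose (2 at an unadjusted p under 0.05, limma), and the median was -0.48. *Pkdcc*, a secreted kinase needed for long bones, was at 213, 164, 235 and 211 TPM in WT and at 91.9, 82.8 and 51.5 TPM in *Gli3*-/- limbs, a fall by 1.47. *Runx2*, the master factor of bone cells, fell by 1.60 from 1.53 to 5.70 TPM to 0.34 to 0.52 TPM, and *Twist1*, a mesenchymal helix-loop-helix factor, by 0.65 from 247 to 293 TPM to 167 to 176 TPM. *Sox9*, the first factor of cartilage, was at 51.6, 47.0, 66.0 and 65.5 TPM and at 57.7, 89.3 and 53.4 TPM, so that the groups overlapped (log2 fold change 0.19, SE 0.18). *Pkdcc*, *Twist1* and *Prrx1* passed in every fit without a library, and the other falls, among them *Runx2*, *Sox6* and *Col9a3*, did not. Collagen chains, taken up after their values were seen, showed 6 falls among 29 tested (20.7%, against 2.93% of all), and each of the 6 was lost in some such fit.

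Of 39 tested cell cycle genes 3 rose (7.69%, against 1.84% of all) and 0 fell (2 at an unadjusted p under 0.05, limma), with a median of 0.07. They were *Cdkn1a*, the p21 inhibitor, by 1.03 (from 7.92 to 9.18 TPM to 17.1 to 19.6 TPM), *Cdk6* by 0.70 and *Ccnd1* by 0.59, and *Mki67* stood at 0.19 (SE 0.12). *Cdk6* and *Ccnd1* are also described with the HH genes above, so that their rises are not separate observations. Of 22 apoptosis genes 3 rose (13.6%, against 1.84% of all), the p53 target *Pmaip1* by 1.21, *Bok* by 0.62 and *Bcl2* by 0.50, and *Bok* alone passed in every fit without a library. Of 16 limb mesenchyme markers 8 fell (50%, against 2.93% of all) and *Fgf10* rose (6.25%, against 1.84%). Their summed TPM was 1780 to 2100 in WT and 1360 to 1490 in *Gli3*-/- limbs. *Msx1*, *Msx2*, *Meis2*, *Lhx9*, *Twist1*, *Prrx1* and *Fgf10* of this list are also described with the lists above, so that it is not a separate observation. *Tbx5* and *Lmx1b*, which mark the whole forelimb and its dorsal side, stood at 0.13 and -0.03.

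The next families were taken up after their values were seen. Of 11 tested genes for insulin-like growth factors and the proteins that bind them 3 fell (27.3%, against 2.93% of all). *Igf1* fell by 1.58, from 5.64, 6.65, 6.82 and 12.99 TPM to 1.65, 2.31 and 1.76 TPM, *Igfbp5* by 0.95 and *Igfbp2* by 0.51. Of 8 tested subunits of receptors for glutamate, GABA and glycine 5 fell (62.5%, against 2.93% of all), and 23 more were below the filter. Among the falls were *Gria2* by 2.29, *Glrb* by 0.85, *Gria3* by 0.81 and *Gabra3* by 0.65, and *Gria2* and *Glrb* passed in every fit without a library. Of 6 genes of the Groucho (TLE) family 3 fell (50%, against 2.93% of all), *Tle2* by 1.30, *Tle6* by 0.59 and *Aes* by 0.47, and *Tle2* alone passed in every such fit.

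The 3 *Gli3*-/- libraries differed in how far they lay from WT. Of the 747 genes, the library nearest the WT mean was replicate 1 in 374, replicate 2 in 242 and replicate 3 in 131. Among the 15 anterior genes that fell, replicate 1 was the highest *Gli3*-/- library in 12 and replicate 3 the lowest in 11. Among the 18 posterior genes that rose, replicate 1 was the lowest *Gli3*-/- library in 15. In WT limbs replicate 2 was the lowest library for 12 of those 15 anterior genes and the highest for 9 of the 18 posterior genes. The part of these differences in the results was not tested. Without *Gli3*-/- replicate 1, 489 genes passed, and without WT replicate 2, 680 passed.

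By the change in TPM rather than in fold, the largest falls were dominated by copies of ribosomal protein genes. *Gm15772*, a pseudogene on chromosome 5, fell from 1728, 1707, 2444 and 1995 TPM to 426, 480 and 437 TPM, *Rps2-ps13* from 953 to 1424 TPM to 454 to 457 TPM, and *Rpsa-ps10* from 637 to 994 TPM to 264 to 279 TPM. Reads of such copies can be shared with their parent genes, so that these values are uncertain. *Rps2*, the parent of *Rps2-ps13*, looked up after these values were seen, rose by 0.54 (388 to 501 TPM against 614 to 638 TPM), and its copy *Rps2-ps10* rose by 0.49. Of 147 copies tested 7 rose (4.76%, against 1.84% of all) and 7 fell (4.76%, against 2.93%). *Rpl7a* fell by 1.01 and *Asb4*, an imprinted gene of chromosome 6, from 714, 638, 660 and 786 TPM to 389, 332 and 332 TPM. Of the abundant rises, *Nnat* went from 1371 to 1573 TPM to 1936 to 1955 TPM, and the calls of *Nnat*, *Pfn1*, *Hnrnpab* and the beta globin *Hbb-bs* were each lost without some of the libraries (limma adjusted p up to 0.138).

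Transfer RNA genes of the mitochondrial genome were taken up after their values were seen. Of 21 tested 10 fell (47.6%, against 2.93% of all), with a median of -1.09 over the 21. Of 15 protein and ribosomal RNA genes 0 passed (3 at an unadjusted p under 0.05, limma). *mt-Tw* was at 66.4, 204, 70.6 and 107 TPM in WT and at 18.7, 10.48 and 5.51 TPM in *Gli3*-/- limbs, whereas *mt-Nd2*, which it overlaps, was at 2508 to 3530 TPM and at 2555 to 3062 TPM. WT replicate 2 was the highest library for *mt-Tw* and *mt-Ta*. These genes span fewer bases than a read, so that TPM is a poor measure of them, and 4 of the 10 passed in every fit without a library.

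Genes near *Gli3* on chromosome 13, which embryos inherit along with the null allele, were counted after values there were seen. Within 20 Mb of *Gli3*, 9 of 169 other tested genes rose (5.33%, against 1.84% of all) and 2 fell. *Gpx6*, a glutathione peroxidase at 21312217 to 21319624, was at 0.46, 0, 0.35 and 0.33 TPM in WT and at 7.82, 7.46 and 7.44 TPM in *Gli3*-/- limbs, a rise of 2.75 with the smallest SE among the 12 largest rises (0.16). *Prl8a2* reached 2.20, 1.51 and 2.45 TPM in *Gli3*-/- limbs, against a listing of 0 in each WT library, and *Nid1* rose by 0.87. Of the rises 4 were the histone genes *Hist1h2ad*, *Hist1h2ai*, *Hist1h2aj* and *Hist1h2an*, near-identical copies whose reads cannot be told apart. Linkage to the allele and loss of *Gli3* cannot be told apart in this design.

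The effect at E10.5 was set beside that in whole E9.25 buds of 21 to 23 somites (3 WT and 4 *Gli3*-/- libraries) by the interaction of stage and genotype, in which the stage and the part of the bud cannot be told apart. It passed for 348 of 16368 genes (2.13%), with 78 more positive and 270 more negative at E10.5. This split depends on the scaling, at 160 and 193 with quantile normalization and 134 and 215 with median-of-ratios factors, and the median gene stood at -0.24. The count was 1433 without E9.25 WT replicate 1, 150 without E10.5 *Gli3*-/- replicate 3, and between 201 and 230 without E10.5 WT replicate 1, 3 or 4, E10.5 *Gli3*-/- replicate 1 or 2, E9.25 WT replicate 2 or 3, or E9.25 *Gli3*-/- replicate 3. *Pax1* was listed at 0 in all 3 E9.25 WT libraries, and *Agtr2* and *Crhbp* in all 7 E9.25 libraries. Other genes were already expressed then without a fall, *Hoxb6* at a mean of 55.3 TPM in WT and 63.7 TPM in *Gli3*-/- buds, and *Irx3* at 31 and 37.6 TPM, and the interaction was -2.84 and -3.39 (limma adjusted p = 0.00087 and 0.00151). *Msx2* was at 35.0 and 40.4 TPM, with an interaction of -2.44 (SE 0.21, limma adjusted p = 0.000104). For *Rspo4* (31 and 16.1 TPM), *AA465934* (26.1 and 13.8 TPM) and *Gpx6* (0.629 and 7.18 TPM) the interaction did not pass. The E9.25 groups of *AA465934* overlapped, at 10.8 to 54.5 TPM in WT and 12.6 to 15.9 TPM in *Gli3*-/- buds, and its interaction had an SE of 0.52. The interaction uses the same 7 E10.5 libraries as the comparison above.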

How the data were processed

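RNA of anterior E10.5 forelimb buds was compared between 3 *Gli3*-/- and 4 WT libraries, with groups taken from the sample labels. The authors extracted RNA with TRIzol, made libraries with the NEBNext Ultra II RNA kit, sequenced single reads, used HISAT2 as the aligner and DESeq2 for differential expression. The authors deposited, per gene, coverage (mean depth of signal per base), FPKM and TPM. The deposited TPM values were used for every comparison, and the ratio of the deposited coverage to the deposited FPKM served to estimate depth. The labels name mm10. The counting tool, its use of strand and the annotation are not given in the sources used here, and of 33122 IDs whose symbol is in RefSeq, 99.8% overlapped their namesake in GRCm38.p6. The tables hold no counts, so that DESeq2 was not run.

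The TPM of IDs on more than 1 line (16 IDs) was summed, and log2(TPM + 1) was tested with limma 3.58.1 in R 4.3.3 (eBayes with a trend, two-sided, Benjamini-Hochberg adjustment over all tested genes, threshold 0.05) on genes that reached a TPM of 1 in 3 or more of the compared libraries. This scale understates changes of low genes. Other steps ran in Python 3.11.15 (NumPy 2.4.6, pandas 2.3.3, matplotlib 3.10.9, SciPy 1.17.1). The interaction with E9.25 was fitted over all 14 libraries. The procedure was tested on simulated data. The genes named are *Gli3*, the 20 largest falls and 12 largest rises by log2 fold change, the 6 largest falls and 4 largest rises by TPM, each among genes past the threshold with no overlap between the groups, and members of gene lists. Of 42 such genes 16 overlap another gene that reached 1 TPM, and in 8 the overlap is on the same strand. The condition on the groups was met by all 747 genes past the threshold, so that it left out no gene. The members and lists were chosen with earlier results of these data known. Alternatives were median-of-ratios factors or quantile normalization, no filter or one at 5 TPM, a pseudocount of 0.1, no trend in eBayes, removal of mitochondrial and globin genes, sample quality weights, replicate blocks, all 14 libraries in 1 fit, other thresholds and each library left out. Some genes are not reported here.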

Additional observations from a re-analysis of the deposited data

Results flagged for a closer look

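In 2 named genes 1 WT library stood apart from the other 3 of its group by Dixon's test, WT replicate 2 in both, among 42 genes tested in this way, where chance alone gives about 1 in 20. *Alx4* was at 5.04 log2(TPM + 1) in that library against 5.70 to 5.75 in the others, and *Msx2* at 5.03 against 5.41 to 5.47. Every *Gli3*-/- library lay below these values for both genes.

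The effect of *Gli3* loss differed between anterior E10.5 buds and whole E9.25 buds for 28 of 42 named genes, against 348 of all 16368 genes (2.13%). This was read from the interaction of stage and genotype (limma, adjusted over 16368 genes), in which stage and part of the bud cannot be told apart. All named genes but *Gli3* were picked for their change at E10.5. The interaction reuses those values, so that a high share was built in by the choice. Among anterior and proximal factors the interaction was -4.29 for *Pax1*, -3.09 for *Alx4*, -3.39 for *Irx3* and -2.75 for *Irx5*. Among Hox genes it was -2.84 for *Hoxb6*, -2.85 for *Hoxc4* and -2.94 for *Hoxc5*, and 4.04 for *Hoxd12*, 4.74 for *Hoxd13*, 2.63 for *Hoxa13* and 3.10 for *Hoxd11*, with 2.51 for *Gm28309*, 2.36 for *9530018H14Rik* and 2.11 for *Gm27454*. It was -2.44 for *Msx2*, 2.52 for *Shh* and 2.08 for *Fgf4*. It was -5.08 for *Nr1h5*, which at E9.25 had a mean of 1.61 TPM in *Gli3*-/- buds and of 0.0577 TPM in WT buds, -2.41 for *Agtr2*, -2.28 for *Gria2*, -2.23 for *Crhbp* and -2.06 for *Rprm*. It was -3.07 for *mt-Tw*, -2.86 for *mt-Ta*, -2.60 for *Gm9722*, -2.59 for *Gm9967* and -1.13 for *Rpsa-ps10*. For *Nnat* it was 1.30, with means of 408 TPM in WT and 212 TPM in *Gli3*-/- buds of E9.25. These values are differences of changes on the log2(TPM + 1) scale, and for genes listed at 0 in a group they depend on the pseudocount.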

How the results depend on the processing

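The count of 747 changed genes (288 higher, 459 lower) was 391 without a filter (178 and 213, over more genes), 386 with all 14 libraries in 1 fit (131 and 255), 1356 with sample quality weights (466 and 890), 256 at an adjusted p under 0.01 (111 and 145) and 208 with a log2 fold change of at least 1 (60 and 148). Quantile normalization gave 772 (344 and 428) and median-of-ratios factors gave 814 (357 and 457). Leaving out each E10.5 library gave 301 to 680 genes (124 to 229 higher, 177 to 451 lower). A replicate block by the numbers of the sample titles gave 167 (69 and 98), of which 160 were among the 747, and a block by the numbers the deposited tables carry gave 502 (240 and 262), of which 431 were. Deviations of same-numbered libraries correlated at 0.15, -0.13 and -0.18 by title and at 0.05, 0.32 and 0.20 by table. By table number, WT replicates 3 and 4 correlated best with their own number, and WT replicate 2 did not (0.05 against 0.08). The main comparison did not take the numbers as pairing the libraries. Whether the table numbers mark a shared batch was not tested. The interaction (348, 78 higher and 270 lower) gave 830 with weights (140 and 690), 179 lower genes with a filter at TPM 5, 160 higher with quantile normalization and 134 higher with median-of-ratios factors, and 150 to 1433 (40 to 150 higher, 110 to 1283 lower) without 1 library. No replicate block was run on it, because the stages share no pools. Of 3103 values for 175 genes under the alternatives, 2541 kept the call, 562 lost it and 0 changed sign. Of 1224 counts of list members in a direction, 1029 stayed within 1.5 times the main count. The cause was not tested, apart from the fewer libraries or the larger number of genes tested. At 20.7 to 28.1 reads per kilobase for a TPM of 1, changes of genes near the filter and of short genes are the least precise.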

Other observations

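The next 3 genes lie outside the 20 largest falls and were chosen after their values were seen. *Pth1r*, the receptor of parathyroid hormone-related protein, was at 38.1, 28.2, 42.7 and 39.7 TPM in WT and at 8.03, 10.4 and 5.37 TPM in *Gli3*-/- limbs (log2 fold change -2.12, SE 0.20, limma adjusted p = 0.000643). *Alcam*, a cell adhesion molecule, was at 12.4 to 23.9 TPM in WT and at 3.77 to 4.72 TPM in *Gli3*-/- limbs, a fall by 1.95. *Fap*, a surface protease of fibroblasts, went from 5.19 to 6.26 TPM to 0.68 to 1.30 TPM, a fall by 1.75.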
